A study of Mus musculus with 8 samples.

Results

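Solute carriers are the membrane proteins that move sugars, amino acids, lactate, nucleosides, metals and ions across the cell surface and organelle membranes, and their genes carry symbols that begin with Slc. The members described here are the solute carrier genes outside the mitochondrial SLC25 family that were expressed in TGF-β-induced regulatory T cells (iTreg). They were chosen by symbol and by expression level, as every gene with an Slc symbol outside SLC25 and a mean of at least 1 FPKM over the 8 libraries. Of 322 such symbols among the 23361 genes of the table, 123 met this limit and 199 did not, of which 89 were listed at 0 in every library. FPKM is a fragment count scaled by exon length and by library total, so it compares levels between genes per transcript length, and it measures mRNA rather than carrier protein or transport.

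The study asked how iTreg that express neuropilin-1 (Nrp-1), a surface co-receptor, differ from iTreg that lack it. Naive CD4+ T cells (CD44 low, CD62L high) came from Foxp3-RFP reporter mice labelled WT, whose cells turn red when Foxp3, the transcription factor of regulatory T cells, is expressed. Both groups received the same culture with anti-CD3/CD28 beads, IL-2 (50 U/ml in the labels) and TGF-β (2 ng/ml), and viable CD4+ Foxp3-RFP+ cells were then sorted into Nrp-1+ iTreg (4 libraries) and Nrp-1- iTreg (4 libraries). The labels give 3 days of culture in 1 field and Day 5 in another, and the methods place the sort on day 3. The methods give the IL-2 dose by mass and not in units, so it cannot be set beside that of the labels, and they name another library kit. By the methods the mice were male, on a C57BL/6 background and 7 to 8 weeks old. The number of mice per library and any pooling are not given in the sources used here. The labels call the libraries biological replicates, and by the labels only the sort on Nrp-1 separates the groups, which were both made in vitro.

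Activated T cells import glucose through GLUT proteins of the SLC2 family and release the lactate of glycolysis through monocarboxylate carriers of the SLC16 family. Leucine and other large amino acids enter through a dimer of a light chain encoded by Slc7a5 and a heavy chain encoded by Slc3a2, and amino acid supply is read by the mTORC1 kinase complex. Nucleoside carriers of the SLC28 and SLC29 families feed the salvage route of nucleotide synthesis, which dividing cells use beside synthesis from small precursors. Zinc carriers of the ZIP family (SLC39) fill the cytosol and those of the ZnT family (SLC30) empty it.

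Nrp1 itself, on whose protein the cells were sorted, stood at 20.4 to 22.0 FPKM in Nrp-1+ libraries and 4.70 to 5.31 FPKM in Nrp-1- libraries (limma adjusted p = 1.35e-07), the direction the labels give. Cd3e, Cd4, Foxp3, Il2ra and Ctla4 were present in every library (summed level 1049 to 1075 and 1044 to 1067 FPKM). Among them Il2ra (0.22, limma adjusted p = 0.000108) and Foxp3 (0.09, 0.0245) were higher and Ctla4 (-0.15, 0.000938) was lower in Nrp-1+ iTreg on the log2 scale, and Cd3e and Cd4 did not pass. The B cell, NK cell and dendritic cell markers each summed to less than 1 FPKM. Of markers of other cells, Itgam was at 6.38 to 7.0 against 5.38 to 5.73 FPKM with Lyz2 and Csf1r at or near 0, Hba-a1 was at 5.48 to 7.53 against 2.01 to 3.25 FPKM, and Cd8b1 was at 7.07 to 8.77 against 9.28 to 11.3 FPKM with Cd8a near 0. The 8 proliferation genes of the list (Mki67, Top2a, Ccnb1, Cdk1, Birc5, Aurkb, Bub1 and Plk1) were all higher in Nrp-1+ iTreg, with a summed level of 966 to 1007 against 511 to 526 FPKM. The part of proliferation in the differences below was not tested. Short RNA genes took 1.77% to 43.9% of the summed FPKM, with no separation of the groups, and fits without them are among the alternatives. Approximate relative sequencing depth, read from the spacing of the lowest values, was 0.994 to 1.22 in Nrp-1+ and 0.810 to 1.24 in Nrp-1- libraries, set to 1 for Nrp-1+ replicate 1. Because these are bulk samples, fewer cells that express a gene and less of its RNA per cell cannot be told apart.

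The most highly expressed members were Slc9a3r1 at 202 FPKM, Slc44a2 at 148, Slc2a1 at 71.2, Slc16a3 at 71.5 and Slc2a3 at 62.7 FPKM (means over the 8 libraries). Slc9a3r1 encodes a scaffold protein rather than a carrier, Slc44a2 a choline carrier-like protein, Slc2a1 and Slc2a3 the glucose carriers GLUT1 and GLUT3, and Slc16a3 the lactate carrier MCT4. These 5 genes held 29.9% of the members' summed FPKM, and 72 of the 123 members were under 10 FPKM. The threshold left some known genes just outside, and these values are given without a test. Just inside were Slc22a15 (1.10 FPKM), Slc15a2 (1.12) and Slc16a10 (1.16), and just outside were Slc12a8 (0.997), Slc1a4 (0.961) and Slc5a3 (0.895). Slc1a4, a neutral amino acid carrier, averaged 1.18 FPKM in Nrp-1+ and 0.737 FPKM in Nrp-1- iTreg. Slc7a11, the cystine carrier, and Slc40a1, the iron exporter ferroportin, were close to 0, at means of 0.0232 and 0.00893 FPKM.

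Between the groups, 28 of the 123 members were higher and 26 were lower in Nrp-1+ iTreg in limma on log2(FPKM + 1) with an adjusted p under 0.05, and 69 did not pass. These were 22.8% higher and 21.1% lower, beside 20.9% higher and 20% lower among all 10467 genes tested. In either direction 43.9% of the members passed, beside 40.9% of all genes, so the members' share lay near that of all genes. The groups did not overlap for 52 members (42.3%), beside 39.5% of all genes. The mean of 1 group alone reached 1 FPKM in Slc16a10, Slc22a15 and Slc15a2, and the other 120 members held 26 higher and 25 lower genes (42.5% called). Without Nrp-1- replicate 3 the lower count was 17. After adjusting each library for GC content and gene length the counts were 27 higher and 35 lower, and over all genes the share of higher among called genes went from 51.1% to 39.1%.

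The sizes of the differences were modest. The median log2 difference over the members was -0.02, as over all genes (-0.02), and the median size among called members was 0.24, beside 0.22 among all called genes. The largest difference on the log2(FPKM + 1) scale was that of Slc43a3 (1.00), which lay on either side of 2-fold when 1 library was left out (0.959 to 1.029, lowest without Nrp-1- replicate 3 and highest without Nrp-1+ replicate 1), and 7 called members differed by at least 0.5. Differences on this scale understate the change of genes at low FPKM. Their summed level was 1802 to 1893 FPKM in Nrp-1+ and 1847 to 1874 FPKM in Nrp-1- libraries, which overlapped. Within most substrate classes some members were higher and others lower, as the per-class plot of differences shows.

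**Figure D1:**
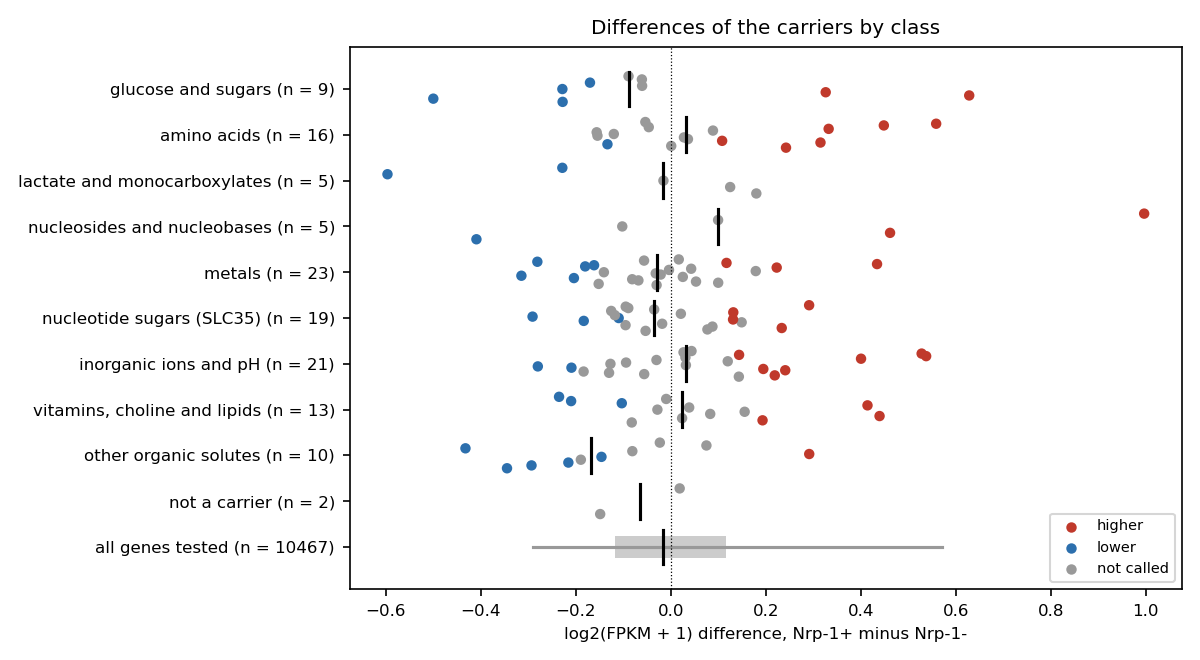
Difference of each member on the log2(FPKM + 1) scale (x axis, Nrp-1+ minus Nrp-1-) by substrate class (y axis); points are members, colours mark the limma call at an adjusted p under 0.05, black bars are class medians, and the bottom row gives all 10467 tested genes as median, quartiles (box) and 5th to 95th percentile (line). Every class with 5 or more members except lactate holds points on both sides of 0 that passed the test, and Slc43a3 lies farthest to the right at 1.00.

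Upstream sequences of 5 called members are shown to set higher members (Slc2a6, Slc7a1 and Slc29a1) beside lower ones (Slc28a2 and Slc31a2). They were chosen after their values were seen, among the called members with an entry in the RefSeq promoter table (build GRCm38.p6). Each run is the 250 bases before a listed transcription start, 5′ to 3′ on the gene's strand, with GC boxes (GGGCGG or its complement CCGCCC) in capitals. No run overlaps an exon of the GENCODE M21 annotation. The table's start need not be the gene's outermost one: the whole Slc31a2 run lies inside the gene's RefSeq span, before an internal start, and so do the last 78 bases of the Slc28a2 run and the last 2 bases of the Slc2a6 run. Slc2a6 lies at chr2:27027999-27028248 on the minus strand, Slc7a1 at chr5:148399905-148400154 on the minus strand (1 of 2 listed starts), Slc29a1 at chr17:45599619-45599868 on the minus strand (1 of 8 listed starts), Slc28a2 at chr2:122426185-122426434 on the plus strand and Slc31a2 at chr4:62286179-62286428 on the plus strand.
Slc2a6: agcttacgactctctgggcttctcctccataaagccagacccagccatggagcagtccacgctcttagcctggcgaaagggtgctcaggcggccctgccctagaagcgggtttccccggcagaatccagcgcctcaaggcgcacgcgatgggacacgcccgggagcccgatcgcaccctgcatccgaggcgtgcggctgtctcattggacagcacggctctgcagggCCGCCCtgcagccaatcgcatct
Slc7a1: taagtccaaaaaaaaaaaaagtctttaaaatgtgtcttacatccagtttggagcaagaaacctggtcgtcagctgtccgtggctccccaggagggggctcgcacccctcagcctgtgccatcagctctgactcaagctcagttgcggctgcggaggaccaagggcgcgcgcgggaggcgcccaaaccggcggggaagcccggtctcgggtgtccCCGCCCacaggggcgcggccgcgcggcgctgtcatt
Slc29a1: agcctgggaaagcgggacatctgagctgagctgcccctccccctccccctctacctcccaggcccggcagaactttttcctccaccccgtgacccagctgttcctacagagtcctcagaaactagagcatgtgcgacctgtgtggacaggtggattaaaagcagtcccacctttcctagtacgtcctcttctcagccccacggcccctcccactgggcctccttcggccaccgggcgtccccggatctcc
Slc28a2: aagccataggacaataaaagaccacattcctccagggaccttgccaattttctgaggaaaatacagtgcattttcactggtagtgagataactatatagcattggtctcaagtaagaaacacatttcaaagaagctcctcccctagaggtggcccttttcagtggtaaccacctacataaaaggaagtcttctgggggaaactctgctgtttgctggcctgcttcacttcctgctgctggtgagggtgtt
Slc31a2: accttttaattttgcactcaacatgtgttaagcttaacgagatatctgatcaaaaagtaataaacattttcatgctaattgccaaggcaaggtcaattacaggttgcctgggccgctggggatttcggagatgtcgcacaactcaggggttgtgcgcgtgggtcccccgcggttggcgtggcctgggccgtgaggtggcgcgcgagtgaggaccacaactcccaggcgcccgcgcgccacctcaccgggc

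The higher members Slc2a6 and Slc7a1 each carried 1 GC box, and the other 3 runs carried none. Their GC content was 65.2% in Slc2a6, 62.4% in Slc7a1 and Slc29a1, 56% in Slc31a2 and 45.2% in Slc28a2, whose run held no CpG. Over the 91 members with an entry, the GC box was found upstream of 59 (64.8%), beside 61.5% of 7700 tested genes and 32.9% of all 27025 genes in the table. It stood upstream of 13 of 21 higher, 12 of 17 lower and 34 of 53 uncalled members. The E-box CACGTG, which MYC and related factors can bind, was found in 12 members (13.2%), beside 8.99% of tested and 6.05% of all genes, and those 12 were 2 higher, 1 lower and 9 uncalled members. TGATGNAA, the core of the amino acid response element, was found in 2 members (2.2%), both uncalled, beside 1.81% of tested and 3.53% of all genes. Both strands were searched in the same 250-base window, and a match describes letters and not a bound site.

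Glucose carriers split by member. The highly expressed GLUT1 and GLUT3 genes were lower in Nrp-1+ iTreg, and the less expressed Slc2a6 and Slc2a8 were higher. Of the 9 members of the glucose and sugar class (of 26 symbols), 2 were higher, 4 were lower and 3 did not pass (66.7% called, beside 40.9% of all genes). The class median was -0.09 on the log2 scale, beside -0.02 for all genes.

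Slc2a3 (GLUT3, a high-affinity glucose carrier, at chr6:122727809-122802363 in GRCm38) was at 50.1, 50.0, 53.5 and 53.3 FPKM in the 4 Nrp-1+ libraries and at 76.0, 71.5, 75.8 and 71.0 FPKM in the 4 Nrp-1- libraries. All Nrp-1+ libraries lay below all Nrp-1- libraries. It fell from 73.6 ± 2.68 to 51.7 ± 1.96 FPKM (SD, n = 4 per group), a log2 difference of -0.50 (SE 0.0355, limma adjusted p = 1.54e-05). Slc2a1 (GLUT1, the main glucose carrier of activated T cells) was at 63.6, 64.6, 65.6 and 68.3 FPKM in Nrp-1+ and at 77.2, 78.3, 79.5 and 72.7 FPKM in Nrp-1- libraries. Again the groups did not overlap, and the log2 difference was -0.23 (SE 0.0339, limma adjusted p = 0.00105). Within each library the ratio of Slc2a1 to Slc2a3, which library scaling cannot alter, was 1.23 to 1.29 in Nrp-1+ and 1.02 to 1.10 in Nrp-1- libraries (a description, as are the other ratios below, since these pairs were chosen after their values were seen). Together both genes summed to 117.3 ± 3.76 against 150.5 ± 5.04 FPKM.

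Slc2a6 (a GLUT protein of intracellular membranes, its upstream run shown above) was at 3.23, 2.59, 2.57 and 2.99 FPKM in Nrp-1+ and at 1.61, 1.3, 1.53 and 1.5 FPKM in Nrp-1- libraries, with no overlap. Its log2 difference was 0.63 (SE 0.0751, limma adjusted p = 0.000322). Slc2a8 (GLUT8, also intracellular) was at 3.5, 4.33, 4.22 and 3.94 FPKM in Nrp-1+ and 2.79, 2.87, 3.46 and 2.83 FPKM in Nrp-1- libraries, a log2 difference of 0.33 (SE 0.0746, limma adjusted p = 0.00901). Replicate 3 was the highest of the Nrp-1- libraries but stayed just below the lowest Nrp-1+ library. Both genes summed to 6.84 ± 0.10 against 4.47 ± 0.355 FPKM, a small part of the level of Slc2a1 and Slc2a3. The summed level of the whole class was 205 to 217 FPKM in Nrp-1+ and 243 to 256 FPKM in Nrp-1- libraries.

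The sugar phosphate exchangers of the endoplasmic reticulum also included lower members. Slc37a1 averaged 9.97 ± 0.403 against 11.9 ± 0.483 FPKM (log2 difference -0.23, limma adjusted p = 0.002). Slc37a4, which carries glucose 6-phosphate into the endoplasmic reticulum, averaged 13.2 ± 0.873 against 15 ± 0.682 FPKM (-0.17, limma adjusted p = 0.0269), but its groups overlapped. Its call was lost, with an adjusted p of up to 0.0704, without Nrp-1+ replicate 2 or 3 or Nrp-1- replicate 2, 3 or 4. The 3 uncalled sugar members, named to complete the class after their values were seen, were Slc50a1 at 48.8 and 52.0 FPKM, Slc37a3 at 9.61 and 10.1 FPKM and Slc45a4 at 4.39 and 4.62 FPKM.

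Among amino acid carriers, most of those that passed the test were higher. Of 16 members (of 56 symbols), 6 were higher (37.5%), 1 was lower (6.25%) and 9 did not pass, beside 20.9% higher and 20% lower among all genes, with a class median of 0.03. In either direction 43.8% passed, near the 40.9% of all genes. The higher members included the leucine carrier light chain Slc7a5, the cationic amino acid carrier Slc7a1 and the large neutral amino acid carrier Slc43a1.

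Slc7a5 (LAT1, at chr8:121881146-121907686) was at 23.6, 24.7, 24.0 and 26.8 FPKM in Nrp-1+ and at 16.9, 16.8, 16.8 and 15.5 FPKM in Nrp-1- libraries. Every Nrp-1+ library lay above every Nrp-1- library. The means were 24.8 ± 1.41 and 16.5 ± 0.671 FPKM, a log2 difference of 0.56 (SE 0.0448, limma adjusted p = 3.18e-05). Slc3a2 (CD98, the heavy chain that pairs with Slc7a5) was at 36.7, 34.3, 34.3 and 36.3 FPKM in Nrp-1+ and 31.8, 32.0, 34.2 and 35.1 FPKM in Nrp-1- libraries, where the groups overlapped. Its difference of 0.09 did not pass (95% interval -0.004 to 0.18, limma adjusted p = 0.115). In each library the ratio of Slc7a5 to Slc3a2 was 0.642 to 0.737 in Nrp-1+ and 0.441 to 0.531 in Nrp-1- iTreg, so the light chain was higher relative to the heavy chain in every Nrp-1+ library.

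Slc7a1 (CAT1, the arginine and lysine carrier, upstream run above) was at 9.81, 9.98, 9.52 and 10.8 FPKM in Nrp-1+ and 7.30, 7.03, 7.14 and 6.82 FPKM in Nrp-1- libraries, without overlap. The log2 difference was 0.45 (SE 0.0406, limma adjusted p = 6.49e-05). Slc43a1 (LAT3, a sodium-independent carrier of large neutral amino acids) averaged 12.3 ± 0.955 against 9.52 ± 0.155 FPKM (0.33, limma adjusted p = 0.00124). Slc36a4, a proton-coupled amino acid carrier, averaged 4.96 ± 0.312 against 3.79 ± 0.262 FPKM (0.32, limma adjusted p = 0.00289). Slc16a10, an aromatic amino acid carrier close to the expression limit, averaged 1.34 ± 0.116 against 0.975 ± 0.0535 FPKM (0.24, limma adjusted p = 0.0193). The groups did not overlap in these genes. Slc16a10, whose mean reached 1 FPKM in Nrp-1+ iTreg alone, was lost under quantile normalization (adjusted p = 0.125) and with a replicate block (adjusted p = 0.0555).

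Smaller differences were less firm. Slc38a1 (SNAT1, a glutamine carrier) averaged 24.0 ± 0.365 against 22.2 ± 1.05 FPKM (0.11, limma adjusted p = 0.0349), and its call was lost when any 1 of the 4 Nrp-1+ libraries or Nrp-1- replicate 3 or 4 was left out (adjusted p up to 0.0861). Slc36a1, a lysosomal amino acid exporter, was the 1 lower member (3.89 ± 0.104 against 4.37 ± 0.243 FPKM, -0.13, limma adjusted p = 0.0396), and was lost when any 1 of the 4 Nrp-1+ libraries or Nrp-1- replicate 2 or 3 was left out (adjusted p up to 0.0888).

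The glutamine carriers Slc1a5 and Slc38a2, both at higher levels than Slc38a1, did not pass. Slc1a5 (ASCT2) averaged 37.9 ± 1.74 and 37.8 ± 1.05 FPKM, with a 95% interval of the log2 difference of -0.08 to 0.08. Slc38a2 (SNAT2), the amino acid member with the highest mean, averaged 43.3 ± 1.04 and 42.5 ± 1.14 FPKM, with an interval of -0.03 to 0.09. These intervals hold differences of under 0.1 in size. Slc38a9, the lysosomal arginine sensor of mTORC1, was lower in each of the Nrp-1+ libraries (1.61, 1.97, 2.06 and 1.75 against 2.1, 2.24, 2.20 and 2.13 FPKM), yet its difference of -0.16 did not pass (limma adjusted p = 0.085). It passed without Nrp-1+ replicate 3 (-0.19, adjusted p = 0.0487) and without the trended prior (adjusted p = 0.0434). Slc43a2 (LAT4) averaged 13.4 ± 0.623 and 13.8 ± 0.449 FPKM (interval -0.13 to 0.04). The remaining uncalled members Slc38a6, Slc38a7, Slc38a10 and Slc7a6, also named after their values were seen, had differences from -0.15 to 0.04. The summed level of the class was 253 to 264 FPKM in Nrp-1+ and 234 to 240 FPKM in Nrp-1- libraries.

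**Figure D2:**
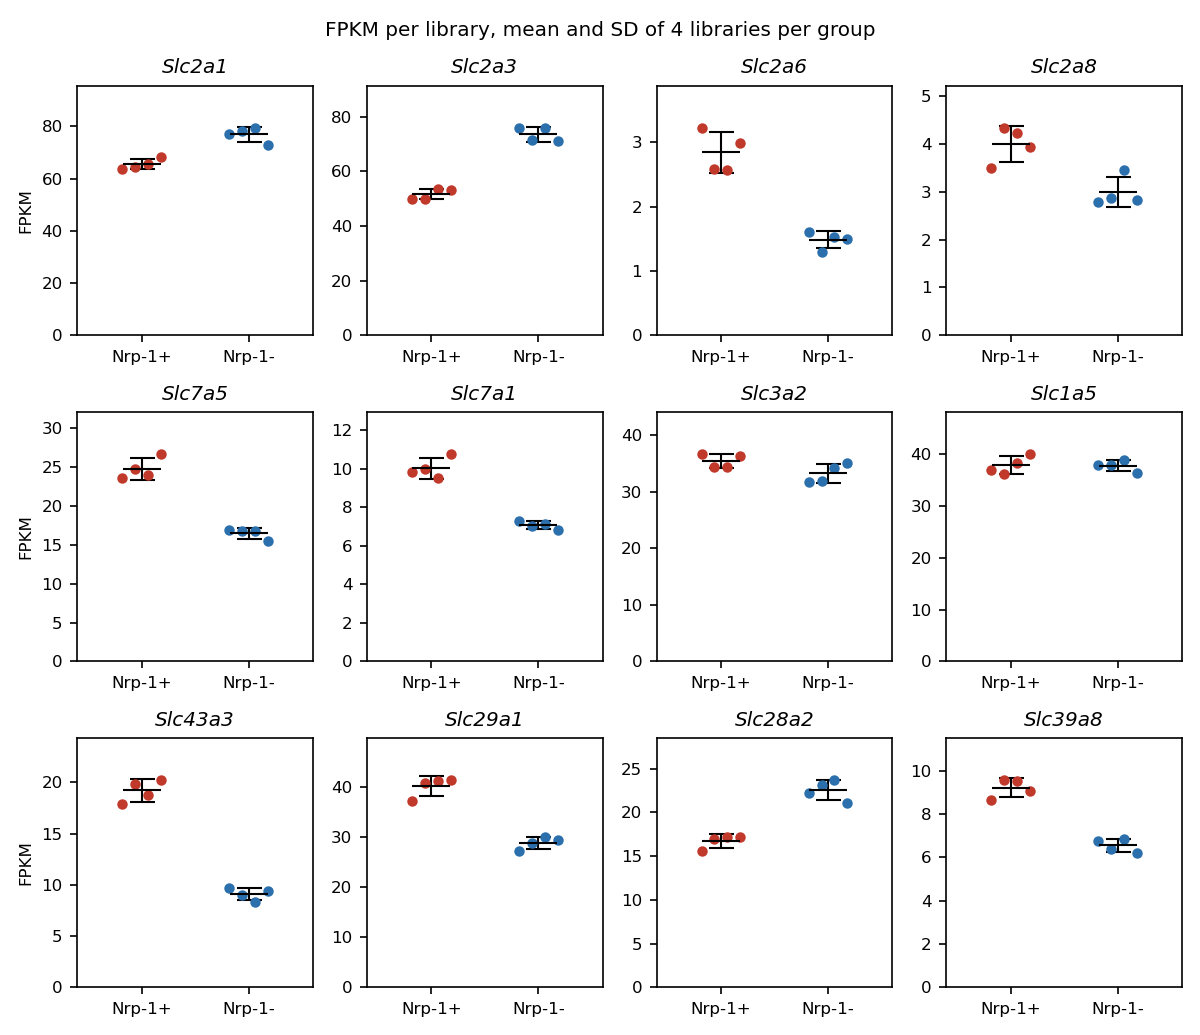
FPKM of 12 members in each library (y axes from 0, FPKM; x axis, group), with points for the 4 libraries of a group, and bars for the mean and SD. The groups are apart for 10 of the genes and overlap for Slc3a2 and Slc1a5; Slc2a1, Slc2a3 and Slc28a2 are lower in Nrp-1+ iTreg and the other 7 are higher.

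Of the lactate carriers, the abundant Slc16a3 did not differ detectably, and the called members were weakly expressed relatives of the MCT family. Of 5 members (of 15 symbols), 0 were higher in limma, 2 were lower and 3 did not pass (40.0% called, beside 40.9% of all genes), with a class median of -0.02. Slc16a3 (MCT4, the lactate exporter of glycolytic cells) was at 67.6, 69.6, 73.2 and 74.3 FPKM in Nrp-1+ and 72.4, 74.7, 70.2 and 70.4 FPKM in Nrp-1- libraries, which overlapped. The difference was -0.02 with a 95% interval of -0.10 to 0.07. Slc16a1 (MCT1) was at 6.15, 5.64, 6.29 and 5.91 FPKM in Nrp-1+ and 5.66, 5.28, 5.33 and 4.49 FPKM in Nrp-1- libraries, overlapping by the lowest Nrp-1+ and the highest Nrp-1- library. Its difference of 0.18 missed the threshold (limma adjusted p = 0.0505) and passed it in 6 of the alternatives (adjusted p = 0.0335 to 0.0489), among them the fit without Nrp-1- replicate 1. The ratio of Slc16a1 to Slc16a3 was 0.0796 to 0.0911 in Nrp-1+ and 0.0638 to 0.0782 in Nrp-1- libraries.

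Slc16a5 (MCT6) was at 1.14, 0.878, 0.981 and 1.18 FPKM in Nrp-1+ and 1.85, 2.21, 2.22 and 2.09 FPKM in Nrp-1- libraries. The groups lay well apart, with a log2 difference of -0.60 (SE 0.075, limma adjusted p = 0.00043) and a ratio of means of 0.500. Slc16a6 (MCT7) averaged 1.93 ± 0.260 against 2.42 ± 0.126 FPKM (-0.23, limma adjusted p = 0.0378). It was lost without Nrp-1+ replicate 1 or 3 or any 1 of the 4 Nrp-1- libraries (adjusted p up to 0.08), and 23.5% of its exon bases are shared with other genes, mostly on the opposite strand. The strand setting of the counting is not given in the sources used here, so reads of these genes may not be told apart. Slc16a13, named after its values were seen, averaged 1.64 and 1.43 FPKM and did not pass.

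**Figure D3:**
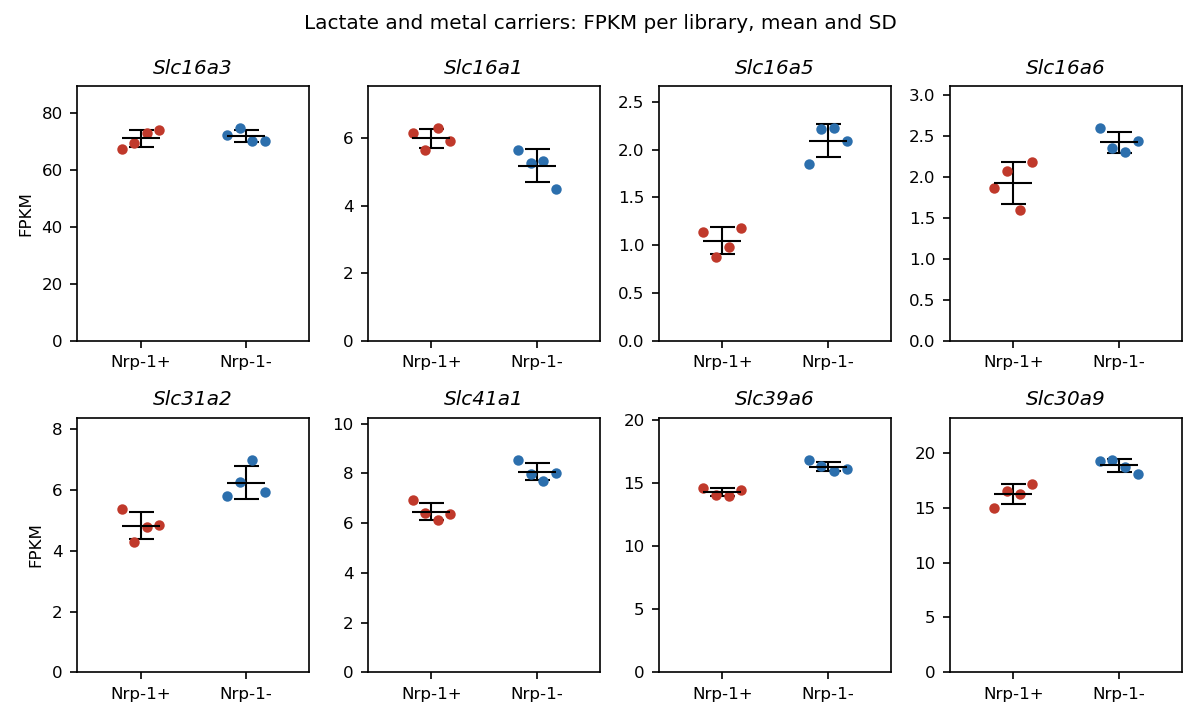
FPKM of 4 SLC16 members and 4 metal carriers in each library (y axes from 0, FPKM; x axis, group), with points for libraries and bars for the mean and SD of 4 libraries. Slc16a3 and Slc16a1 overlap between the groups, while Slc16a5, Slc16a6, Slc31a2, Slc41a1, Slc39a6 and Slc30a9 lie lower in all Nrp-1+ libraries.

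The nucleoside and nucleobase carriers included the member with the largest difference of all 123, and their changes ran both ways. Slc43a3 and Slc29a1 were higher, Slc28a2 was lower, and Slc29a3 and Slc29a4 did not pass, which accounts for the 5 members (of 8 symbols, 60% called, beside 40.9% of all genes). The class median was 0.10. Slc43a3, a carrier of purine nucleobases (at chr2:84936545-84958509), was at 17.9, 19.9, 18.8 and 20.3 FPKM in Nrp-1+ and 9.69, 9.04, 8.35 and 9.46 FPKM in Nrp-1- libraries. The lowest Nrp-1+ library stood far above the highest Nrp-1- library, and the means of 19.2 ± 1.08 and 9.13 ± 0.584 FPKM gave a log2 difference of 1.00 (SE 0.053, limma adjusted p = 3.1e-06) and a ratio of 2.1.

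Slc29a1 (ENT1, the equilibrative nucleoside carrier of the cell surface) was at 37.2, 40.8, 41.2 and 41.5 FPKM in Nrp-1+ and 27.2, 28.8, 30.0 and 29.5 FPKM in Nrp-1- libraries. No library of either group reached the other, and the log2 difference was 0.46 (SE 0.0431, limma adjusted p = 7.81e-05). Slc28a2 (CNT2, which takes up purine nucleosides with sodium) moved the other way, at 15.6, 16.9, 17.2 and 17.2 against 22.2, 23.1, 23.7 and 21.1 FPKM. It fell by 0.41 on the log2 scale (SE 0.0442, limma adjusted p = 0.000183). Within libraries, the ratio of Slc29a1 to Slc28a2 was 2.38 to 2.42 in Nrp-1+ and 1.23 to 1.40 in Nrp-1- iTreg. Slc29a3, the lysosomal ENT3, averaged 6.40 ± 0.589 and 6.93 ± 0.382 FPKM (interval -0.25 to 0.04). Slc29a4, named after its values were seen, averaged 1.35 ± 0.174 and 1.2 ± 0.197 FPKM (interval -0.10 to 0.30). The class summed to 78.1 to 87.5 FPKM in Nrp-1+ and 67.1 to 70.4 FPKM in Nrp-1- libraries. The proliferation genes, whose summed level is given above, moved in the same direction as Slc43a3 and Slc29a1, and their part in these differences was not tested.

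Metal carriers formed the largest of the 5 substrate classes, with 23 members (of 33 symbols), of which 3 were higher, 5 were lower and 15 did not pass, a share of 34.8% called beside 40.9% of all genes. The class median was -0.03, and the summed level was 264 to 278 FPKM in Nrp-1+ and 279 to 284 FPKM in Nrp-1- libraries. Higher were the ZIP carriers Slc39a8, Slc39a4 and Slc39a9. Lower were the copper carrier Slc31a2, the magnesium carrier Slc41a1, the ZnT family member Slc30a9 and the ZIP carriers Slc39a6 and Slc39a7.

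Slc39a8 (ZIP8, a carrier of zinc, manganese and iron) was at 8.66, 9.58, 9.51 and 9.07 FPKM in Nrp-1+ and 6.76, 6.39, 6.86 and 6.21 FPKM in Nrp-1- libraries, without overlap. Its log2 difference was 0.43 (SE 0.0432, limma adjusted p = 0.000112). Slc39a4 (ZIP4) averaged 6.36 ± 0.551 against 5.29 ± 0.30 FPKM (0.22, limma adjusted p = 0.0201) and was lost without Nrp-1- replicate 3 or 4 (adjusted p up to 0.0543). Slc39a9 (ZIP9) averaged 12.5 ± 0.511 against 11.4 ± 0.184 FPKM (0.12, limma adjusted p = 0.0205) and was lost without Nrp-1+ replicate 3 or Nrp-1- replicate 2 (adjusted p up to 0.0536) and under quantile normalization (adjusted p = 0.0719).

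Slc31a2 (CTR2, a copper carrier of intracellular membranes, upstream run above) was at 5.38, 4.28, 4.77 and 4.84 FPKM in Nrp-1+ and 5.79, 6.25, 6.98 and 5.91 FPKM in Nrp-1- libraries. It fell by 0.31 on the log2 scale (SE 0.071, limma adjusted p = 0.00846). Slc41a1, a magnesium carrier, was at 6.93, 6.41, 6.14 and 6.35 FPKM in Nrp-1+ and 8.54, 7.99, 7.71 and 8.0 FPKM in Nrp-1- libraries and fell by 0.28 (SE 0.0435, limma adjusted p = 0.00132). In both genes the groups stayed apart. Slc30a9 averaged 16.2 ± 0.904 against 18.8 ± 0.568 FPKM (-0.20, limma adjusted p = 0.00533), and Slc39a6 (ZIP6, at the cell surface) averaged 14.3 ± 0.316 against 16.3 ± 0.383 FPKM (-0.18, limma adjusted p = 0.00101). Slc39a7 (ZIP7, which releases zinc from the endoplasmic reticulum) averaged 39.2 ± 1.70 against 44.0 ± 0.688 FPKM (-0.16, limma adjusted p = 0.0045), but 80.7% of its exon bases are shared with the overlapping gene model Gm20427 on the same strand, so its value is uncertain.

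The iron carrier Slc11a2 and the copper carrier Slc31a1 did not pass. Slc11a2 (DMT1) averaged 19.2 ± 1.3 and 19.6 ± 0.134 FPKM (interval of the log2 difference -0.13 to 0.07), and Slc31a1 (CTR1) averaged 6.90 ± 0.455 and 6.76 ± 0.226 FPKM (interval -0.08 to 0.13). The zinc exporter Slc30a1 was at 3.90, 4.4, 4.38 and 5.19 FPKM in Nrp-1+ and 4.91, 4.97, 5.08 and 5.27 FPKM in Nrp-1- libraries, with an overlap and a difference of -0.15 that did not pass (limma adjusted p = 0.111). It passed without Nrp-1+ replicate 4 (-0.21, adjusted p = 0.0137). Slc30a5 averaged 21.0 ± 0.600 and 20.3 ± 0.971 FPKM and Slc39a10 averaged 4.91 ± 0.268 and 5.04 ± 0.189 FPKM, with intervals of -0.03 to 0.14 and -0.13 to 0.07. By family, 1 of 6 ZnT members (16.7%) and 5 of 11 ZIP members (45.5%) passed, beside 40.9% of all genes, and the difference between the families was not tested. Their summed levels overlapped between the groups, at 59.3 to 65.0 against 64.4 to 67.5 FPKM for ZnT and 140.6 to 149.2 against 147.2 to 150.8 FPKM for ZIP.

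**Figure D4:**
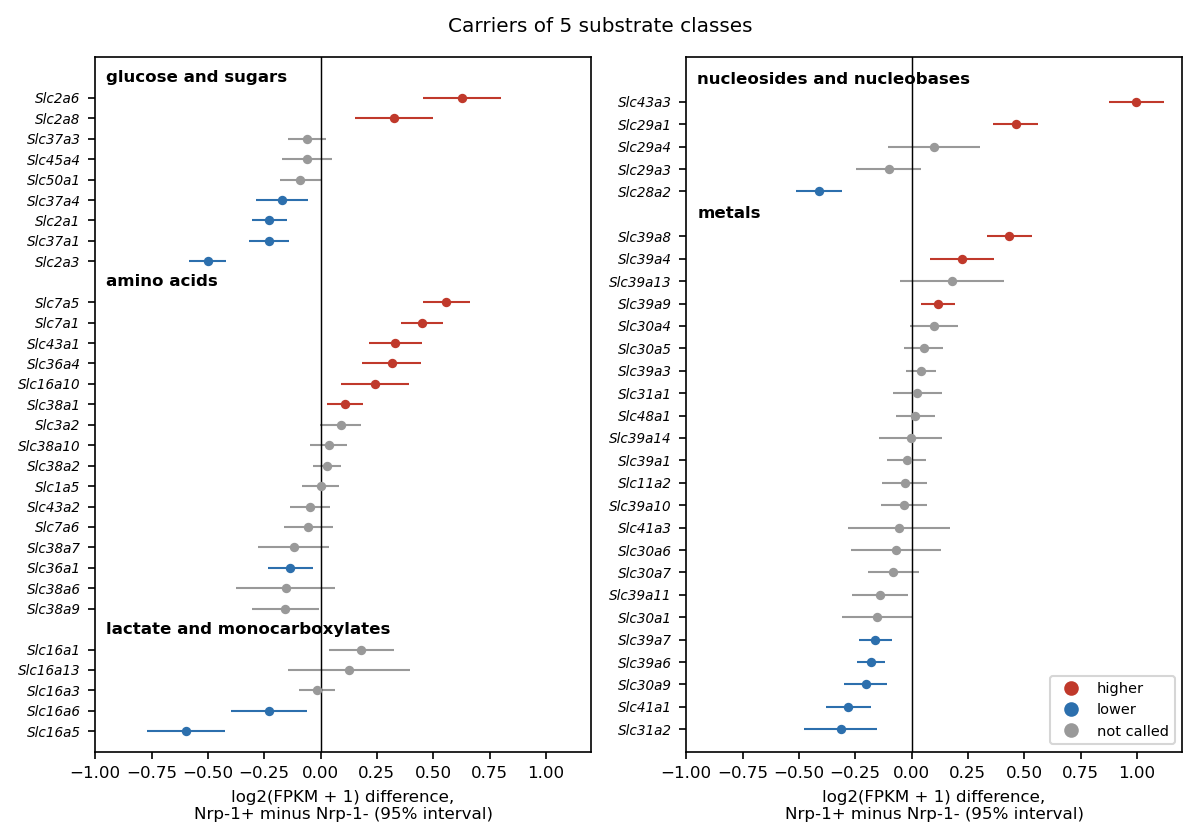
Log2(FPKM + 1) difference (x axis, Nrp-1+ minus Nrp-1-) with its 95% interval from limma for the 58 members of the 5 substrate classes (y axis); colours mark the call at an adjusted p under 0.05. Slc43a3, Slc2a6 and Slc7a5 stand farthest to the right (1.00, 0.63 and 0.56), and Slc16a5 and Slc2a3 farthest to the left (-0.60 and -0.50).

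The remaining 65 members, in 5 other classes, held 15 higher and 13 lower genes (43.1% called, beside 40.9% of all genes). In the ion and pH class 7 of 21 members were higher and 2 lower (42.9% called, beside 40.9% of all genes). The 21 include Slc4a1ap, which matches the symbol pattern but encodes no carrier and did not pass, so 7 of 20 carriers were higher and 2 lower. The sodium-proton exchangers Slc9a2 and Slc9a7 were among the most changed, at 1.79, 2.02, 1.74 and 2.15 against 1.04, 0.905, 1.17 and 0.941 FPKM for Slc9a2 (0.54, limma adjusted p = 0.000734) and 2.17, 2.14, 2.03 and 1.88 against 1.29, 0.965, 1.12 and 1.12 FPKM for Slc9a7 (0.53, limma adjusted p = 0.000497). In both the groups stayed apart at low levels. The bicarbonate carrier Slc4a8 averaged 2.43 ± 0.139 against 1.6 ± 0.114 FPKM (0.40, limma adjusted p = 0.000861), and the anion exchanger Slc26a11 was lower, at 1.79 ± 0.254 against 2.38 ± 0.156 FPKM (-0.28, limma adjusted p = 0.0198). The 6 SLC9 exchangers all had a positive difference, as had 4818 of all 10467 genes tested. Of the 6, 3 passed (50% called, beside 40.9% of all genes). Both sodium-phosphate carriers, named after their values were seen, passed as well, with Slc20a1 at 19.2 ± 0.929 against 16.1 ± 0.417 FPKM (0.24, limma adjusted p = 0.00132) and Slc20a2 at 2.66 ± 0.101 against 2.20 ± 0.188 FPKM (0.19, limma adjusted p = 0.0256). The Slc20a2 call was lost without Nrp-1+ replicate 2 or 3 or Nrp-1- replicate 3 or 4 (adjusted p up to 0.058) and under quantile normalization.

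In the vitamin, choline and lipid class 3 of 13 members were higher and 3 lower (46.2% called, beside 40.9% of all genes). The thiamine carrier Slc19a2 was at 5.46, 5.43, 5.53 and 5.01 FPKM in Nrp-1+ and 3.75, 3.15, 4.21 and 3.70 FPKM in Nrp-1- libraries (0.44, limma adjusted p = 0.00145), while the folate carrier Slc19a1 averaged 5.58 ± 0.686 and 5.46 ± 0.465 FPKM and did not pass (interval -0.17 to 0.22). The choline carrier Slc44a1 averaged 7.14 ± 0.284 against 5.11 ± 0.397 FPKM (0.41, limma adjusted p = 0.000455). Its more abundant relative Slc44a2 went the other way, at 141, 141, 141 and 146 against 155, 155, 149 and 153 FPKM, a small difference of -0.10 that passed (limma adjusted p = 0.00502) but was lost under quantile normalization (adjusted p = 0.0637).

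Among other organic solutes 1 of 10 members was higher and 5 were lower (60% called, beside 40.9% of all genes). These include the pseudogene Slc2a4rg-ps, which encodes no carrier, and without it 1 of 9 was higher and 4 were lower. The lower members with the largest differences were the urea carrier Slc14a1 (1.27 ± 0.156 against 1.88 ± 0.165 FPKM, -0.34, limma adjusted p = 0.00661), the peptide carrier Slc15a2 (0.902 ± 0.0569 against 1.33 ± 0.0741 FPKM, -0.29, limma adjusted p = 0.00667) and Slc2a4rg-ps (2.71 ± 0.302 against 4.00 ± 0.343 FPKM, -0.43, limma adjusted p = 0.00256), whose reads may be shared with a related copy. The other lower members, named after their values were seen, were the vesicular nucleotide carrier Slc17a9 (28.2 ± 1.87 against 31.2 ± 0.477 FPKM, -0.15, limma adjusted p = 0.0289) and the peptide and histidine carrier Slc15a4 (10.5 ± 0.841 against 12.3 ± 0.849 FPKM, -0.22, limma adjusted p = 0.0276). The Slc17a9 call was lost without Nrp-1+ replicate 1 or 2 or any 1 of the 4 Nrp-1- libraries (adjusted p up to 0.0729), and the Slc15a4 call without Nrp-1+ replicate 1 or 2 or Nrp-1- replicate 1 or 3 (adjusted p up to 0.0709). Slc22a15 was the higher member (1.31 ± 0.0458 against 0.885 ± 0.0923 FPKM, 0.29, limma adjusted p = 0.00857). In Slc22a15 and Slc15a2 the mean reached 1 FPKM in 1 group alone, the group where each was higher. The 19 SLC35 members, most of them nucleotide sugar carriers of the Golgi, had 4 higher and 3 lower genes (36.8% called, beside 40.9% of all genes), with differences from -0.29 (Slc35c2, limma adjusted p = 0.000378) to 0.29. Slc9a3r1, the scaffold protein with the highest level, averaged 203 ± 4.19 and 200.3 ± 1.56 FPKM and did not pass (interval -0.03 to 0.07).

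By expression level, 20 of 43 members from 1 to 5 FPKM passed the test (46.5%), 24 of 57 from 5 to 20 FPKM (42.1%) and 10 of 23 above 20 FPKM (43.5%). Over all genes the shares in these bins were 29.6%, 39.7% and 48.1%. The median size of difference among these called members was 0.30, 0.23 and 0.17 on the log2 scale. By position, 6 pairs of members lie within 100 kb of each other. Only 1 of these pairs had both members called in the same direction, and in the others at most 1 member was called. That pair is Slc43a1 and Slc43a3, both higher, which lie 72959 bases apart on chromosome 2. Their ratio also lay apart between the groups, with Slc43a3 at 1.43 to 1.82 times Slc43a1 in Nrp-1+ and 0.863 to 1.01 times in Nrp-1- libraries.

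Genes that act beside the carriers were listed by substrate, 30 in all, of which 28 were tested (Castor1 had no matching row and Steap3 was under 1 FPKM), and 5 were higher, 9 lower and 14 uncalled in Nrp-1+ iTreg (50% called, beside 40.9% of all genes). For glucose, Txnip, which promotes internalization of GLUT1, was at 426, 419, 439 and 436 FPKM in Nrp-1+ and 533, 539, 538 and 532 FPKM in Nrp-1- libraries. It fell by 0.32 on the log2 scale (SE 0.0218, limma adjusted p = 1.3e-05), the same direction as Slc2a1 and Slc2a3. Hexokinase 2 (Hk2), which traps glucose in the cell, averaged 12.7 ± 0.484 against 15 ± 0.492 FPKM (-0.23, limma adjusted p = 0.00115), while Hk1, Hif1a and Arrdc4 did not pass. Arrdc4 was at 2.37 to 3.26 against 2.43 to 4.57 FPKM, which overlapped (-0.36, limma adjusted p = 0.094).

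For amino acids, Sesn2, a leucine sensor upstream of mTORC1, averaged 15.6 ± 0.610 against 11.2 ± 0.545 FPKM (0.44, limma adjusted p = 7.87e-05), and Rragc, a GTPase of the same route, was slightly lower (-0.15, limma adjusted p = 0.00162). Mtor, Rptor and Atf4 did not pass. For lactate, the MCT chaperone Bsg averaged 157 ± 4.13 and 155 ± 2.30 FPKM without passing, whereas its relative Emb fell from 83.8 ± 1.83 to 69.1 ± 1.93 FPKM (-0.27, limma adjusted p = 9.55e-05) and Ldha from 983 ± 18.9 to 906 ± 22.9 FPKM (-0.12, limma adjusted p = 0.00865).

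For nucleosides, the salvage enzymes Tk1 and Dck and the purine nucleoside phosphorylase Pnp were higher. Tk1, which is made in dividing cells, was at 59.4, 58.7, 60.7 and 61.9 FPKM in Nrp-1+ and 28, 27.9, 29.8 and 28 FPKM in Nrp-1- libraries (1.06, limma adjusted p = 1.96e-07), and Dck averaged 60.2 ± 1.97 against 41.9 ± 1.15 FPKM (0.51, limma adjusted p = 5.19e-06). Pnp averaged 17.6 ± 1.14 against 13 ± 0.250 FPKM (0.41, limma adjusted p = 0.000182), while the mitochondrial Tk2 was lower (-0.21, limma adjusted p = 0.0071) and Ada did not pass. For metals, the transferrin receptor Tfrc averaged 68.1 ± 2.87 against 42.7 ± 1.67 FPKM (0.66, limma adjusted p = 4.75e-06). The metallothioneins, which bind zinc and copper, were lower, Mt1 at 50.0, 53.4, 53.8 and 56.3 against 62.2, 75, 81.4 and 68.5 FPKM (-0.42, limma adjusted p = 0.00367) and Mt2 at 39.7, 33.0, 32.4 and 29.7 against 50.1, 44.7, 48.4 and 47.9 FPKM (-0.50, limma adjusted p = 0.00166). The ferritin light chain Ftl1 was lower by a small amount (-0.13, limma adjusted p = 0.00516), and Fth1, Mtf1, Ireb2, Aco1 and Atox1 did not pass.

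**Figure D5:**
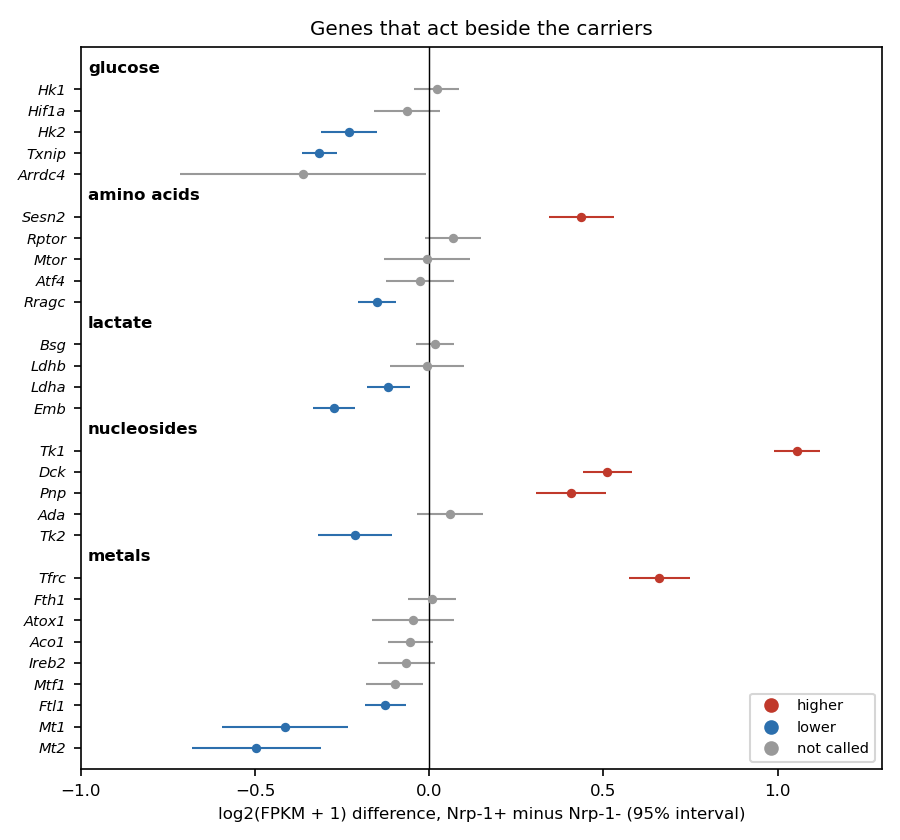
Log2(FPKM + 1) difference (x axis, Nrp-1+ minus Nrp-1-) with its 95% interval from limma for the 28 tested genes that act beside the carriers, by substrate (y axis); colours mark the call at an adjusted p under 0.05. Tk1 and Tfrc lie farthest to the right (1.06 and 0.66) and Mt2 and Mt1 farthest to the left (-0.50 and -0.42).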

How the data were processed

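RNA was sequenced from 4 Nrp-1+ and 4 Nrp-1- iTreg libraries. Per the labels and the study's methods, the authors processed the reads in CLC Genomics Workbench and deposited 1 FPKM value per gene and library, calculated with Cufflinks on build GRCm38/mm10 (submitters' processing notes). The aligner settings, annotation and strand of counting are not given in the sources used here. FPKM are not counts, so no count model was used, and absolute depth is unknown.

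Groups came from the labels. The 10467 genes with a mean of at least 1 FPKM were tested with limma 3.58.1 (R 4.3.3) on log2(FPKM + 1) with a trended prior, and p-values were Benjamini-Hochberg adjusted over all of them. Genes with an adjusted p under 0.05 were called higher or lower. Ratios of 5 pairs of members within libraries were chosen after their values were seen and are given without a test. The fit was tested on simulated data. Alternatives were other pseudocounts, filters, scalings, weights, a replicate block, a GC and length correction and leaving out each library. Exons and transcript lengths came from GENCODE M21 and gene positions from RefSeq GRCm38.p6.

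The members and gene lists were chosen with earlier results of these data known. Members were named by rule as well-known carriers, as up to 5 most raised and 5 most lowered called genes in each of the 5 substrate classes and in the other classes together, as the 3 nearest either side of the FPKM limit, or as the 5 with the highest level. Symbols without carrier function (Slc9a3r1, Slc7a6os, Slc4a1ap and Slc2a4rg-ps) were kept, since the rule is by symbol.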

Additional observations from a re-analysis of the deposited data

Results flagged for a closer look

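In 4 of the named members a single library stood apart from the other 3 of its group by Dixon's test. Slc29a1 was at 37.2 FPKM in Nrp-1+ replicate 1, below the 40.8 to 41.5 FPKM of the other Nrp-1+ libraries. Slc2a8 was at 3.46 FPKM in Nrp-1- replicate 3, above the 2.79 to 2.87 FPKM of the other Nrp-1- libraries. Slc44a2 was at 145.9 FPKM in Nrp-1+ replicate 4, above 140.9 to 141.4 FPKM. Slc7a5 was at 15.5 FPKM in Nrp-1- replicate 4, below 16.8 to 16.9 FPKM. Chance gives about 1 such library in 20 groups, which is 5.3 over the 106 groups searched, so 4 is no more than chance gives. These 4 genes stayed called in limma without any 1 of the 8 libraries.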

How the results depend on the processing

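Of the 54 called members, 39 passed in every fit that left out 1 library, and 35 passed under every alternative that tests them. A filter at a mean of 5 FPKM left 18 higher and 17 lower members, since fewer were tested, with class medians of -0.199 (glucose), 0.062 (amino acids), 0.082 (lactate) and 0.18 (nucleosides). The nucleoside median was 0.166 with a pseudocount of 0.1 and 0.037 under quantile normalization. With the GC and length correction, with or without the replicate block, the amino acid median was 0.003 and the metal median -0.059. Deviations of same-numbered libraries were weakly correlated over members (-0.041, -0.00539, 0.172 and 0.108). Over all genes tested the correlations were -0.537, -0.0201, 0.0104 and -0.5. With 4 libraries per group these values cannot show whether same-numbered libraries came from the same culture, which is not given in the sources used here. A replicate block gave 22 higher and 17 lower members, 39 of the 54 called members keeping their call and direction. Of the members named above, the block ended the calls of Slc16a10 (adjusted p = 0.0555), Slc37a4 (0.0568), Slc16a6 (0.0642), Slc38a1 (0.066), Slc39a4 (0.0678) and Slc36a1 (0.0945), and also those of Slc20a2, Slc17a9 and Slc15a4. The block with the GC and length correction ended those of Slc38a1 (0.0526), Slc39a9 (0.059), Slc36a1 (0.0623), Slc16a10 (0.0632), Slc39a4 (0.0715) and Slc20a2, while Slc30a1 passed there (0.0381). Without a filter on low values Slc16a6 (0.0509) and Slc36a1 (0.0714) were lost, and without short RNA genes Slc36a1 (0.0593). Leaving out 1 library gave 23 to 29 higher and 17 to 26 lower members (17 without Nrp-1- replicate 3), a glucose median of -0.127 to -0.075 (lowest without Nrp-1- replicate 1) and a nucleoside median of 0.063 to 0.161 (lowest without Nrp-1+ replicate 4, highest without Nrp-1- replicate 4). The amino acid median was then 0.021 to 0.049 (lowest without Nrp-1+ replicate 4 or Nrp-1- replicate 2, highest without Nrp-1- replicate 1), the metal median -0.051 to -0.007 (without Nrp-1+ replicate 4 and 1) and the lactate median -0.036 to 0.008 (without Nrp-1+ replicate 4 and 1). Members that were not called changed sign near 0. Slc19a1 was at -0.003 under quantile normalization and the GC and length correction. Slc1a5 was at -0.019 under quantile normalization, -0.006 with array weights and -0.026 with the correction. Slc31a1 was at -0.004 under quantile normalization and -0.021 with the correction, Slc38a2 at -0.007 and Slc9a3r1 at -0.018 with it. Leaving out 1 library gave -0.036 to 0.008 for Slc16a3, -0.07 to 0.003 for Slc11a2, -0.026 to 0.073 for Slc19a1 and -0.027 to 0.022 for Slc1a5. The cause of these shifts was not tested. FPKM without counts limits what can be said of members near 1 FPKM, whose counting error is unknown.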
